A study of Mus musculus with 3 samples.

Results

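The 10 integrin genes described here are Itgam, Itgax, Itgal, Itga4, Itga5, Itga6 and Itgav, which encode alpha chains, and Itgb1, Itgb2 and Itgb5, which encode beta chains. They were taken by symbol as a fixed list of chains of macrophage integrins, chosen with earlier results of these data known. They are 10 of 55536 annotated genes in the tables. RNA was measured in bone-marrow-derived macrophages, primary cells grown from the marrow of C57BL/6J mice, that had been given 100 ng/ml lipid A for 20 min. Lipid A is the part of bacterial lipopolysaccharide that the receptor TLR4 recognises. RNA attached to chromatin, which is rich in transcripts still being made or spliced, was depleted of ribosomal RNA and sequenced. The only group had 3 libraries, numbered as biological replicates 1, 2 and 3 and made from 1000, 250 and 500 ng of RNA. No mutation or transgene is named, age and sex are given as not collected, and 1 donor entry covers the 3 samples, so separate animals are not established. No untreated cells were analysed here, so the values are levels after lipid A and not responses to it.

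Integrins are cell surface receptors made of 1 alpha and 1 beta chain, and the pairing decides which ligand is bound. The beta 2 chain (CD18) is found on leukocytes and pairs with alpha L (LFA-1, which binds ICAM-1), alpha M (Mac-1 or complement receptor 3), alpha X and alpha D. The beta 1 chain pairs with many alpha chains, among them alpha 4, alpha 5 and alpha 6, which bind VCAM-1, fibronectin and laminins in turn, and alpha V with beta 5 binds vitronectin and helps in the uptake of dying cells. Integrins are held inactive until talin and kindlins bind the beta tail.

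Libraries held 12439931 to 16317439 expected counts per gene table. Protein-coding genes took 15.8%, 18.0% and 24.7% of TPM (a level scaled for transcript length and for the library total) in replicates 1, 2 and 3, and snoRNA genes 55.7%, 46.4% and 40.4%. The TPM of a coding gene is therefore best compared with other genes of the same library. The macrophage label was met: 10 of 10 macrophage markers reached 1 TPM in every library, with a summed level of 680 to 1136 TPM. Of the markers of other cells, 0 of 8 for neutrophils, 1 of 8 for dendritic cells, 0 of 7 for T and NK cells, 0 of 6 for B cells, 3 of 6 for megakaryocytes, 0 of 6 for fibroblasts, 1 of 6 for endothelium and 1 of 6 for erythroid cells did so. In a second set of transcript tables, described further on, these counts were 0, 3, 1, 2, 3, 2, 2 and 1. The summed levels of these other markers were at most 24.5 TPM in the gene tables, that of the megakaryocyte list. Pf4, in that list, had 15.5 ± 5.45 TPM there (SD, n = 3). This ceiling did not hold for the second set, where Pf4 alone averaged 34.7 TPM. Ly6g and Cd3e, which define neutrophils and T cells, were listed at 0 counts in every library of the gene tables. In bulk RNA, fewer cells of a type and less RNA per cell cannot be told apart.

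Of the 10 integrin genes, 9 reached 1 TPM in every library, against 8942 of 22028 protein-coding genes (40.6%). Their mean TPM ranged from 87.3 ± 37.5 for Itga4 to 1.13 ± 0.284 for Itgal (SD, n = 3 for each), with a median over the members of 19.7. Coding genes at or above 1 TPM in every library had a median of 9.07. The members took 94.7%, 91.1% and 94.1% of the summed TPM of 26 integrin chain genes in replicates 1, 2 and 3. The list was drawn up as chains of macrophage integrins, so the number detected and these shares describe the list and test nothing. By mean TPM the order was Itga4, Itga5, Itgb2, Itgb1, Itga6, Itgav, Itgam, Itgb5, Itgax and Itgal. Of the 9 neighbouring pairs in this order, 6 had the same direction in every library and a mean difference above its SD. Itga6 and Itgav, Itgav and Itgam, and Itgam and Itgb5 did not differ beyond their spread. Over 3 libraries the smallest exact sign-flip p is 0.25, so no test of these differences is given.

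**Figure D1:**
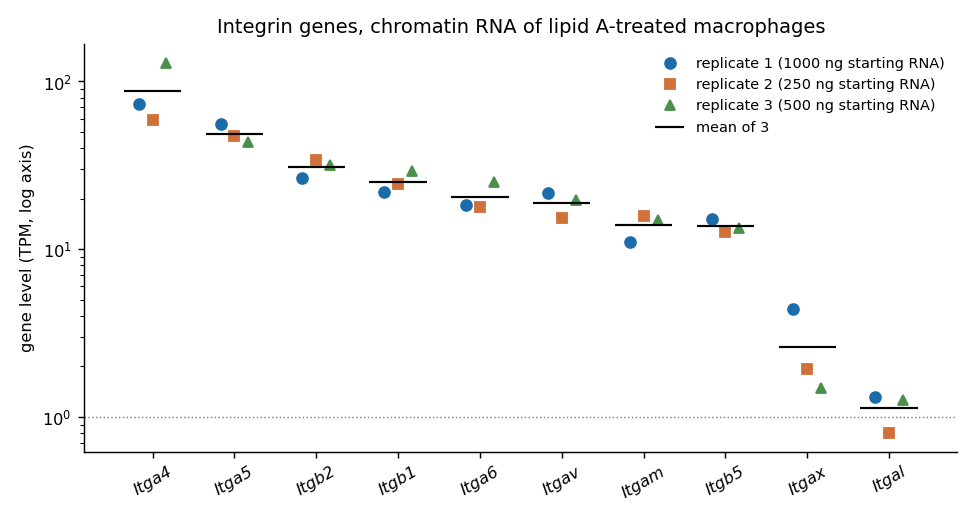
Gene level in TPM (log axis) of the 10 integrin genes in each library, with points for replicates 1 to 3, a bar for the mean and a dotted line at 1 TPM. Itga4 lies highest in every library, and Itgax and Itgal lie below 5 TPM in all of them.

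The chains of the beta 2 integrins came first. Itgb2, the common beta chain (ENSMUSG00000000290.13, GRCm38 chromosome 10, 77530252 to 77565708, plus strand), had 26.5, 34.1 and 31.9 TPM in replicates 1, 2 and 3, a mean of 30.8 ± 3.89 (SD, n = 3). Itgam, the alpha chain of Mac-1 (ENSMUSG00000030786.18, chromosome 7, 128062640 to 128118491, plus strand), had 11.05, 15.8 and 14.9 TPM, a mean of 13.9 ± 2.52 (SD, n = 3). Both were lowest in replicate 1 by TPM. CPM are expected counts scaled to the library total after edgeR's TMM adjustment, and not to length. By CPM both were lowest in replicate 3, at 79.5 for Itgb2 and 58.7 for Itgam. Itgax, which encodes CD11c and is widely used as a dendritic cell marker (ENSMUSG00000030789.9, chromosome 7, 128129547 to 128150657, plus strand), had 4.42, 1.93 and 1.49 TPM, a mean of 2.61 ± 1.58 (SD, n = 3). Itgal, the alpha chain of LFA-1 (ENSMUSG00000030830.18, chromosome 7, 127296260 to 127335138, plus strand), had 1.32, 0.80 and 1.26 TPM, a mean of 1.13 ± 0.284 (SD, n = 3). These low values rest on 54.9 to 139 expected counts for Itgax and 79 to 175 for Itgal per library.

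Itgam was thus the leading partner of the beta 2 chain in every library. It lay 2.50, 8.18 and 10.01 times above Itgax and 8.37, 19.7 and 11.8 times above Itgal in replicates 1, 2 and 3. Counting Itgad as well, which had 0.200 ± 0.111 TPM (SD, n = 3), Itgam made up 64.6%, 84.4% and 84.0% of the TPM of the 4 alpha genes. The lower share in replicate 1 went with Itgax-202, a retained-intron transcript of 352 bases. It was listed at 2.71 TPM from 12.5 counts in that library and at 0 in replicates 2 and 3. The second set listed it in all of them, at 4.16, 1.84 and 0.387 TPM. Over protein-coding isoforms only, Itgax had 1.40, 1.73 and 1.00 TPM, and Itgam lay 7.89, 9.13 and 14.1 times above it. Itgb2 exceeded the sum of its 4 alpha partners by 0.78 ± 0.13 on the log2 scale (SD, n = 3), or 1.55, 1.82 and 1.79 times in the 3 libraries. Over coding isoforms this was 0.70 ± 0.018 (SD, n = 3).

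The genes Itgam and Itgax lie close together on chromosome 7 in the same orientation, and the letters upstream of their start sites are shown because their levels differed in every library. The RefSeq promoter table (GRCm38.p6) held 7 of the 10 members and lists 250 bases before each start site, at chr7:128062390-128062639 for Itgam and chr7:128129300-128129549 for Itgax. Capitals mark GAGGAA, the core bound by the macrophage factor PU.1, or TGANTCA, an AP-1 motif, on either strand.
Itgam upstream: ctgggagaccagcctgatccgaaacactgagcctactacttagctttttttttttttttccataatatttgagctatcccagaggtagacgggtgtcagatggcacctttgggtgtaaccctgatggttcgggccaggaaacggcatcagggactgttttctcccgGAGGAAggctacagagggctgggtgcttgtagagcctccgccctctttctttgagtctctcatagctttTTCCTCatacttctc
Itgax upstream: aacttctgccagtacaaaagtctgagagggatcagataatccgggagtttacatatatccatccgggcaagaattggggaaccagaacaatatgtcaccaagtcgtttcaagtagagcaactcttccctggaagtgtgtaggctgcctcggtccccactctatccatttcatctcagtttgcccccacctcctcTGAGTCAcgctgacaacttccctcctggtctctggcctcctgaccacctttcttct
In the 300-base windows, which also hold the first 50 bases of the gene, Itgam had GAGGAA at -84, -15 and 33 from the start site and Itgax had none. Itgax alone had TGANTCA, at -56. GAGGAA was found in 4 of the 7 members and in 28.3% of 32851 promoters, and TGANTCA in 1 of 7 and 7.81%. An NF-kB motif made of GGG, 2 bases of any kind and TTTCC was in 0 of 7 members and 1.63% of promoters, and a wider one made of GGG, 5 bases of any kind and CC in 3 of 7 and 50.8%. A match of letters is not a bound site, and binding was not measured.

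The beta 1 chain and its partners were the most abundant group at the gene level. Itgb1 (ENSMUSG00000025809.15, chromosome 8, 128685654 to 128733200, plus strand) had 22.0, 24.4 and 29.3 TPM, a mean of 25.2 ± 3.72 (SD, n = 3). Itga4, which gives VLA-4 with beta 1 (ENSMUSG00000027009.18, chromosome 2, 79255426 to 79333123, plus strand), had 73.0, 59.0 and 129.8 TPM, and its mean of 87.3 ± 37.5 (SD, n = 3) was above 98.3% of coding genes. Its SD came from replicate 3, which lay far above the other two. In CPM the 3 libraries were closer, at 464, 367 and 483. Part of this closeness came from the TMM adjustment, with factors of 1.02, 0.862 and 1.14 in replicates 1, 2 and 3. It raised the value of replicate 2 and lowered those of replicates 1 and 3. Rescaled over coding genes, Itga4 had 462, 327 and 525 TPM.

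Itga5, the fibronectin receptor chain (ENSMUSG00000000555.8, chromosome 15, 103344286 to 103366763, minus strand), had 55.7, 47.5 and 43.5 TPM, a mean of 48.9 ± 6.18 (SD, n = 3). Itga6, the laminin receptor chain (ENSMUSG00000027111.15, chromosome 2, 71745616 to 71858416, plus strand), had 18.4, 17.9 and 25.1 TPM, a mean of 20.5 ± 4.03 (SD, n = 3). Itga5 lay above Itga6 in every library, and the values of these genes did not overlap. Itga4, Itga5 and Itga6 together exceeded Itgb1 by 2.62 ± 0.23 on the log2 scale (SD, n = 3), which was 6.70, 5.10 and 6.78 times.

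The vitronectin receptor chains lay lower. Itgav (ENSMUSG00000027087.11, chromosome 2, 83724397 to 83806916, plus strand) had 21.6, 15.4 and 19.6 TPM, a mean of 18.9 ± 3.19 (SD, n = 3). Itgb5 (ENSMUSG00000022817.15, chromosome 16, 33829665 to 33949338, plus strand) had 15.2, 12.7 and 13.4 TPM, a mean of 13.7 ± 1.26 (SD, n = 3). Itgav exceeded Itgb5 in every library, by 0.45 ± 0.15 on the log2 scale (SD, n = 3). In the second set of tables the log2 difference was -0.27 ± 0.42 (SD, n = 3), with Itgb5 the higher in replicates 2 and 3. Nor did the direction hold over coding isoforms only, where the log2 difference was -0.73 ± 0.22 (SD, n = 3) and Itgb5 was the higher gene in every library.

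The gene-level values mixed spliced, protein-coding transcripts with transcripts that GENCODE annotates as retained intron or processed transcript. The members have 58 isoforms, of which 24 are of these noncoding classes and 5 are marked for nonsense-mediated decay, and 9 members have at least 1 noncoding isoform. Noncoding isoforms held 74.5% ± 3.08 of the TPM of Itga4, 61.5% ± 10.7 of Itgav, 56.5% ± 10.9 of Itga5 and 55.8% ± 4.69 of Itga6 (SD, n = 3 for each). Itgax had 37.02% ± 29.2, Itgb1 23.6% ± 8.31 and Itgb5 14.6% ± 16.9 (SD, n = 3 for each), and Itgam and Itgal had 0% in every library, while Itgb2 has no isoform of these classes. The median was 48.1% over the 7454 coding genes that have noncoding isoforms and reached 1 TPM in each library. TPM weights short transcripts heavily: by expected counts the share was 37.3% ± 4.32 for Itga4 and 8.66% ± 4.998 for Itga5 (SD, n = 3 for each).

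**Figure D2:**
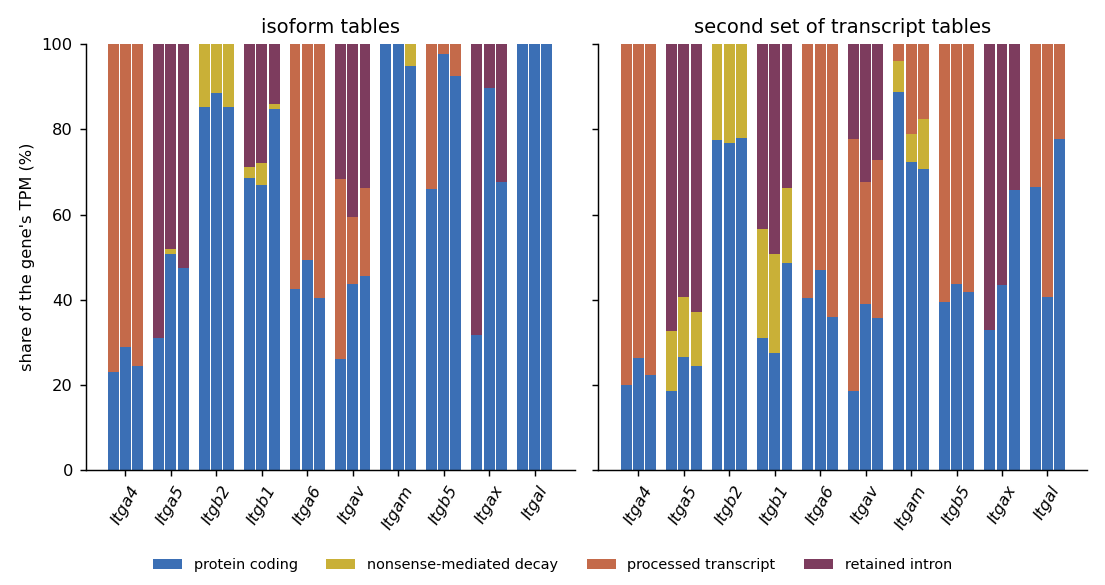
Share of each integrin gene's TPM by annotated class of isoform, with 3 bars per gene for replicates 1, 2 and 3, in the isoform tables (left) and the second set of transcript tables (right). In both, protein-coding isoforms hold less than 30% of Itga4 in every library and more than 70% of Itgb2.

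In none of the 3 libraries was the coding isoform of Itga4 the highest by TPM. By expected counts, which are not scaled to length, it was the highest in every library, at 4497, 3456 and 4186 in replicates 1, 2 and 3. Itga4-205, a processed transcript of 2314 bases and 2 exons, had 20.3, 9.36 and 44.1 TPM, a mean of 24.6 ± 17.8 (SD, n = 3). It ends 3.12% of the way through the gene, and 79.3% of its bases lie outside the exons of the coding isoform. Itga4-201, the only coding isoform, with 28 exons, had 16.9, 17.1 and 31.7 TPM, a mean of 21.9 ± 8.47 (SD, n = 3). Both were highest in replicate 3, and Itga4-205 lay above Itga4-201 in replicates 1 and 3 and below it in replicate 2, where Itga4-203, another processed transcript, led with 18.1 TPM. Itga4-204, named after its values were seen, had 13.9 ± 9.97 TPM (SD, n = 3) and ends at 23.9% of the gene. The sequences of both noncoding isoforms run from an exon straight into the next intron, and the joins are shown here with the last 40 bases of the exon in capitals and the first 80 of the intron in lower case. The spliced coding isoform Itga4-201 holds neither join. An unspliced precursor of Itga4-201 would hold both, so reads over these joins cannot tell it apart from the noncoding isoforms.
Itga4-205, end of exon 2 into intron, chr2:79256260-79256379, plus strand: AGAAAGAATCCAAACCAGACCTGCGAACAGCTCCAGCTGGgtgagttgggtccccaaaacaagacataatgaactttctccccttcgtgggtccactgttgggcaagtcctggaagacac
Itga4-204, end of exon 4 into intron, chr2:79273083-79273202, plus strand: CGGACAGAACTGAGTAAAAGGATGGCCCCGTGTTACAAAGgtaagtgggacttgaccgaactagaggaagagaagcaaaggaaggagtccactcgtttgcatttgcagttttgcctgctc
Both introns begin with gt, the usual first letters of a 5′ splice site.

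Itga5 and Itgb1 also had short noncoding isoforms that run across a join of exon and intron, annotated as retained introns. Itga5-201, the coding isoform, had 17.3, 24.1 and 20.7 TPM, a mean of 20.7 ± 3.41, and the retained-intron isoform Itga5-204, 563 bases long, had 23.4, 12.8 and 10.1 TPM, a mean of 15.4 ± 7.04 (SD, n = 3 for each). Itgb1-201 had 15.07, 16.4 and 24.8 TPM, a mean of 18.8 ± 5.29, and the retained-intron isoform Itgb1-203, 651 bases long, had 6.33, 6.81 and 4.09 TPM, a mean of 5.74 ± 1.45 (SD, n = 3 for each). The noncoding isoform was the higher of the 2 for Itga5 in replicate 1 only, and for Itgb1 in no library. In the second set Itgb1-203 had 26.6, 26.9 and 21.7 TPM against 15.5, 13.5 and 26.2 for Itgb1-201, so it was the higher in replicates 1 and 2. The joins of intron and exon are printed as for Itga4, with 40 exon bases in capitals, and the same limit on unspliced precursors holds. That of Itga5-204 is the end of an intron and the start of the exon after it.
Itga5-204, intron into exon, chr15:103351057-103351176, minus strand: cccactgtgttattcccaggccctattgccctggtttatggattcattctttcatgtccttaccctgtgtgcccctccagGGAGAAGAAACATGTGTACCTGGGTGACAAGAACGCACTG
Itgb1-203, end of exon 4 into intron, chr8:128710436-128710555, plus strand: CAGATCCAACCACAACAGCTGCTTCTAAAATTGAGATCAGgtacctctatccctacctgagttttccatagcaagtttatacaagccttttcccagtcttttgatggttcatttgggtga
Itgav was spread over more isoforms, led by the coding Itgav-201 at 5.64 ± 0.978 TPM and the retained-intron Itgav-203 at 4.07 ± 0.232 TPM (SD, n = 3 for each). Itgb2 was mostly 1 isoform, the coding Itgb2-201, at 23.5 ± 3.30 TPM, followed by Itgb2-205, which is marked for nonsense-mediated decay, at 3.00 ± 0.416 TPM (SD, n = 3 for each). Itgam was divided between the coding isoforms Itgam-203, at 7.39 ± 0.762 TPM, and Itgam-205, at 5.02 ± 2.38, and Itgb5 between Itgb5-202, at 7.39 ± 2.42, Itgb5-207, at 2.20 ± 0.621, and Itgb5-201, at 2.02 ± 1.73 (SD, n = 3 for each). For Itga6 the coding Itga6-201 had 4.22 ± 0.483 TPM and the processed transcript Itga6-203 had 3.50 ± 0.907 (SD, n = 3 for each).

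Over protein-coding isoforms only, a setting chosen after the data were seen, the order of the members was different. Itgb2 led with 22.6, 30.2 and 27.2 TPM, a mean of 26.7 ± 3.80 (SD, n = 3). Itga4 had 21.9 ± 8.47, Itga5 20.7 ± 3.41, Itgb1 18.8 ± 5.29, Itgam 13.7 ± 2.42 and Itgb5 11.6 ± 1.38 TPM (SD, n = 3 for each). Itga6 followed with 8.96 ± 1.18, Itgav with 7.10 ± 1.66, Itgax with 1.38 ± 0.366 and Itgal with 1.12 ± 0.290 TPM (SD, n = 3 for each). Itgb2 exceeded Itga4 in 2 of 3 libraries, by 0.34 ± 0.52 on the log2 scale, and Itga4 exceeded Itga5 in 1 of 3, by 0.03 ± 0.55 (SD, n = 3 for each). These genes were therefore not ordered beyond their spread, and neither were Itga5 and Itgb1, with a difference of 0.16 ± 0.41 (SD, n = 3). From Itgb1 down to Itgax, each gene exceeded the next in 3 of 3 libraries. Itga4, Itga5 and Itga6 together exceeded Itgb1 by 1.47 ± 0.14 on the log2 scale (SD, n = 3), against 2.62 over all isoforms.

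**Figure D3:**
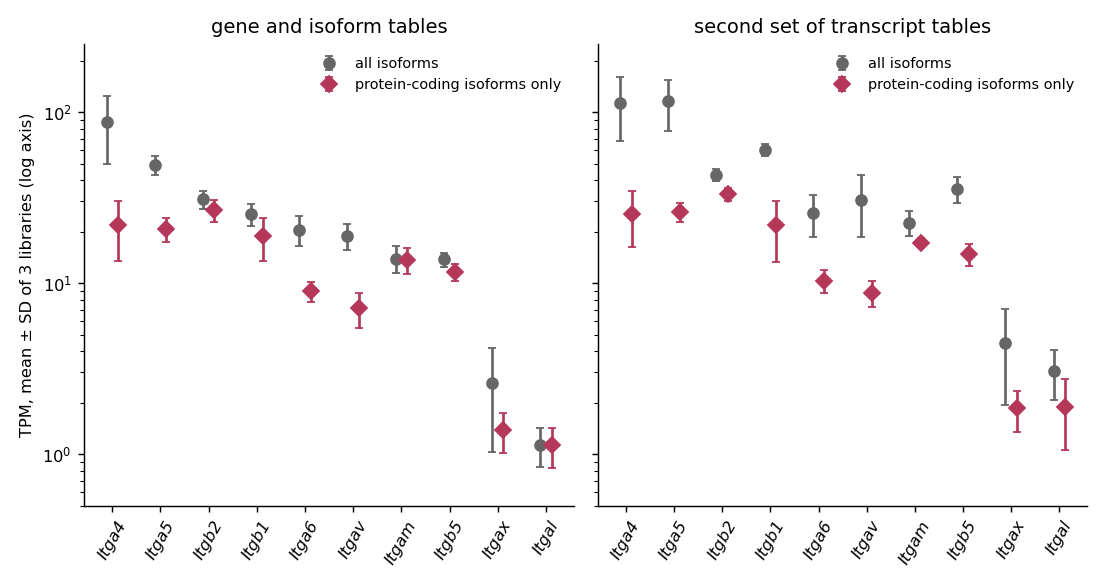
Mean TPM ± SD of 3 libraries (log axis) for each integrin gene over all isoforms (grey circles) and over protein-coding isoforms only (red diamonds), in the gene and isoform tables (left) and the second set of transcript tables (right). On the left Itga4 has 87.3 TPM over all isoforms and 21.9 over coding isoforms, while Itgam has 13.9 and 13.7.

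The second set of transcript tables, made by the authors from the same reads without an alignment, gave higher TPM for each of the 10 members in every library. The fold between means ran from 1.25 for Itga6 to 2.73 for Itgal, with a median of 1.67 over the members and 1.54 over 8938 coding genes. Itga5 had 116 ± 38.2 TPM there, Itga4 113 ± 45.96 and Itgb1 60.2 ± 4.99 (SD, n = 3 for each). Part of this sat in transcripts that the first set held near 0: Itga5-202 had 15.9 ± 5.86 against 0.227 ± 0.327 TPM, and Itgb1-202 had 13.3 ± 2.24 against 0.727 ± 0.465 TPM (SD, n = 3 for each). Both are marked for nonsense-mediated decay. The retained-intron isoforms differed by more: Itga5-203 had 51.2 ± 15.7 against 12.6 ± 2.40 TPM, and Itgb1-203 had 25.1 ± 2.89 against 5.74 ± 1.45 TPM (SD, n = 3 for each). In the second set Itga5-203 lay above the coding Itga5-201 in every library, at 69.0, 39.4 and 45.2 against 29.8, 24.2 and 23.8 TPM. These examples were picked after their values were seen. The comparison of the leukocyte chain Itgb2 with the general chain Itgb1 turned on this choice. Itgb2 exceeded Itgb1 by 0.29 ± 0.18 in the gene tables, in 3 of 3 libraries, and lay 0.49 ± 0.07 below it in the second set, also in 3 of 3 (log2, SD, n = 3 for each). The second value was -0.49 as a difference of Itgb2 from Itgb1. Over coding isoforms Itgb2 was the higher in 3 of 3 libraries in both sets, by 0.53 ± 0.38 and 0.67 ± 0.41 (log2, SD, n = 3 for each). The second set also put Itgb2 first over coding isoforms, at 33.2 ± 3.01 TPM, followed by Itga5 at 25.9 ± 3.32 and Itga4 at 25.3 ± 9.06 (SD, n = 3 for each). The 2 sets differed in the coding ranks of Itga4 against Itga5 and of Itgax against Itgal only. For Itgam and Itgal the second set gave noncoding isoforms 14.2% ± 8.98 and 38.4% ± 19.0 of TPM (SD, n = 3 for each), against 0% in the first.

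Some members have coding isoforms that differ in a short piece, and these pieces are printed because they set which form of the chain a transcript encodes. Itga6 has a 130-base exon at chr2:71853534-71853663, and its inclusion gives the alpha 6A cytoplasmic tail and its omission the alpha 6B tail. Its coding part in Itga6-201, with the stop codon in capitals, reads as follows.
Itga6 exon, chr2:71853534-71853641, plus strand: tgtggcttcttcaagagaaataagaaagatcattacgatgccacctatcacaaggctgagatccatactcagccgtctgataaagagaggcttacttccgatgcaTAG
Among coding isoforms that span the site, those with this exon held 83.3%, 72.1% and 87.9% of TPM in replicates 1, 2 and 3, a mean of 81.1% ± 8.12 (SD, n = 3). In the second set they held 58.2%, 62.6% and 55.6%, a mean of 58.8% ± 3.52 (SD, n = 3). Itga6-201 and Itga6-207, the coding isoforms with the exon, together thus held most of this TPM in every library of both sets, by a smaller margin in the second. In the second set Itga6-202, which lacks the exon, had 4.38, 3.24 and 5.25 TPM against 3.79, 3.52 and 2.64 for Itga6-201. Itga6-202 was the higher of these in replicates 1 and 3, so the lead of the exon there rested on Itga6-207. With the processed transcript Itga6-203, which lacks the exon, counted as well, the means were 58.3% ± 3.39 and 45.3% ± 3.83 (SD, n = 3 for each). Itgb5 has 2 versions of an exon end, 29 bases apart, and the extra bases are in capitals here after the 30 that both share.
Itgb5 exon end, chr16:33947823-33947881, plus strand: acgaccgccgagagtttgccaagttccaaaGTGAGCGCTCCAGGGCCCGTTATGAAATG
The longer version held 82.6% ± 13.9 of the TPM of coding isoforms in the first set and 84.3% ± 9.99 in the second (SD, n = 3 for each), the major one in every library of both. Itgam has 2 versions of an exon start that differ by 3 bases, in capitals here.
Itgam exon start, chr7:128101634-128101666, plus strand: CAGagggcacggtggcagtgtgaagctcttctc
Isoforms with the 3 bases held 38.1%, 53.7% and 41.5% of TPM in the first set and 57.1%, 54.8% and 53.4% in the second, so neither version led throughout.

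Other genes can share reads with the members, and no source used here says whether reads were counted by strand. Of the members, 5 were overlapped by another annotated gene. Itga4 meets Cerkl on the opposite strand at its 3′ end, with 4.06, 3.33 and 2.50 TPM for Cerkl, and Itgav meets Gm13684, with 3.72, 2.20 and 3.69 TPM, and the pseudogene Dnmt3l-ps1, with 3.76, 1.31 and 3.15 TPM, also on the opposite strand. Gm49368 lies on the same strand as Itgam and held 9.19 to 17.1 expected counts, although 74.0% of the 31-base words of Itgam occur in it. Itgam and Gm49368 values are therefore uncertain where reads fell in shared exons. Itgax and Itgad share 12.7% of the words of Itgax, and no 31-base word was shared between other members. These words came from 1 transcript per gene, the main coding isoform for each member, and other isoforms were not compared.

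Of the 16 integrin chains outside the list, 4 reached 1 TPM in every library, and 10 did in the second set of tables. Itga9, a beta 1 partner, had 10.4 ± 3.43 TPM, and Itgb3, the platelet and osteoclast chain that pairs with alpha V, had 2.75 ± 0.832 (SD, n = 3 for each). Itga2b had 1.497 ± 0.347, Itgb7, which pairs with alpha 4 in gut homing, 1.16 ± 0.0945, and Itga10 0.943 ± 0.159 TPM (SD, n = 3 for each). Itga9 lay above Itgax and Itgal in every library, and Itgb5 lay above Itgb3, which is 1 of several other alpha V partners, in every library. Itgb8 was the lowest with any counts, at 0.0267 ± 0.0153 TPM (SD, n = 3). Itgb6 and Itga3 were listed at 0 counts in every library, which allows up to 3 counts, or 0.186, 0.185 and 0.242 CPM in replicates 1, 2 and 3. The second set gave Itgb6 a mean of 2.00 TPM.

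RNA of genes for proteins that regulate integrins, in either direction, or carry their signals was measured next. Of 28 genes listed as activators and adaptors, not all of which activate integrins, 24 reached 1 TPM in every library, and 27 did in the second set. The filamin gene Flna had 225 ± 95.6 TPM, the endocytic adaptor Dab2 216 ± 60.4, talin Tln1 136 ± 33.5 and the leukocyte kindlin Fermt3 85.7 ± 27.9 (SD, n = 3 for each). Of the other kindlins, Fermt2 had 1 count in the 3 libraries, though the second set listed it at 2.69 TPM on average, and Fermt1 was listed at 0 counts in each library. Of 19 kinases and signalling genes, 16 reached 1 TPM in every library, and 17 in the second set. Syk, the tyrosine kinase, led with 179 ± 34.5 TPM. Vav3 had 72.6 ± 11.5, Vav1 63.1 ± 12.3 and the Src family kinase Lyn 55.6 ± 16.6 TPM (SD, n = 3 for each). Bcar1, a focal adhesion scaffold, was the lowest at 0.0833 ± 0.0404 TPM (SD, n = 3).

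All 11 tetraspanins and other membrane partners reached 1 TPM in every library, from Slc3a2 at 76.1 ± 26.5 TPM to Bsg at 4.33 ± 1.17 (SD, n = 3 for each). Between these, the tetraspanin genes Cd37 and Cd63 had 61.6 ± 22.1 and 30.6 ± 7.78 TPM and Plaur, the urokinase receptor, 36.4 ± 9.88 (SD, n = 3 for each). Of 24 ligand genes, 8 did so, and 13 in the second set. The thrombospondin gene Thbs1 had 186 ± 70.1 TPM, the osteopontin gene Spp1 107 ± 35.2, Icam1 88.1 ± 59.1 and Tgfb1 79.5 ± 1.28 (SD, n = 3 for each). The vitronectin gene Vtn had 1 count in the 3 libraries, and the fibrinogen genes Fga, Fgb and Fgg were listed at 0, as were Icam4 and Madcam1.

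The amount of starting RNA is the only labelled difference between the libraries, with 1 library per amount. A slope on it cannot be told apart from any other difference between the 3 libraries. In edgeR's quasi-likelihood test with Benjamini-Hochberg adjustment, 160 of 13985 genes had a slope at adjusted p below 0.05 (1.14%). None of the 10 integrin genes was among them, and 1, Itgal, had an unadjusted p under 0.05. The count of members was also 0 with DESeq2, where none had an unadjusted p under 0.05 and 83 of 12861 genes passed (0.645%). It was 0 as well in edgeR with DESeq2's size factors, without the filter and on the second set's counts, where 0.472%, 1.17% and 1.19% of the genes tested passed. The slope of Itgal was 0.46 ± 0.22 per doubling (log2, SE, edgeR, unadjusted p = 0.0455, adjusted p = 0.687). It was 0.025 without replicate 1 and 0.86 without replicate 2, without a test. The other members had slopes from -0.15 for Itgam to 0.17 for Itga4, with standard errors of 0.16 to 0.23 (log2 per doubling). The members' median slope was -0.01, against 0.00 over all genes tested. Except for Itgal, each member's slope was smaller than its standard error, and a slope that misses the threshold does not show equal levels.

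Among 11 ligand genes tested, 3 had a higher level with more starting RNA in edgeR, against 144 of all 13985 genes tested. The genes were listed as integrin ligands, so their link to the members comes from the list and is not a result. Icam1, the ligand of the beta 2 integrins LFA-1 and Mac-1, had 150, 32.5 and 81.6 TPM in replicates 1, 2 and 3, lowest at 250 ng and highest at 1000 ng, with a slope of 1.21 ± 0.18 (log2 per doubling, SE, edgeR adjusted p = 8.73e-05). C3, whose fragment iC3b is bound by Mac-1, had 3.41, 0.89 and 1.15 TPM and a slope of 1.19 ± 0.22 (SE, edgeR adjusted p = 0.0010). Vcam1, the ligand of VLA-4, had 2.54, 0.75 and 1.24 TPM and a slope of 0.97 ± 0.24 (SE, edgeR adjusted p = 0.0269). Replicate 1 was the highest library for each. The call of Vcam1 was lost with DESeq2 (adjusted p = 0.641), with DESeq2's size factors in edgeR (adjusted p = 0.137) and with counts of the second set (edgeR adjusted p = 0.149). Without replicate 1 the slopes of Icam1, C3 and Vcam1 were 0.68, 0.45 and 0.11, without a test. No gene of the activator, kinase, tetraspanin or other integrin lists was called in edgeR (0 of 24, 17, 11 and 8 tested).

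**Figure D4:**
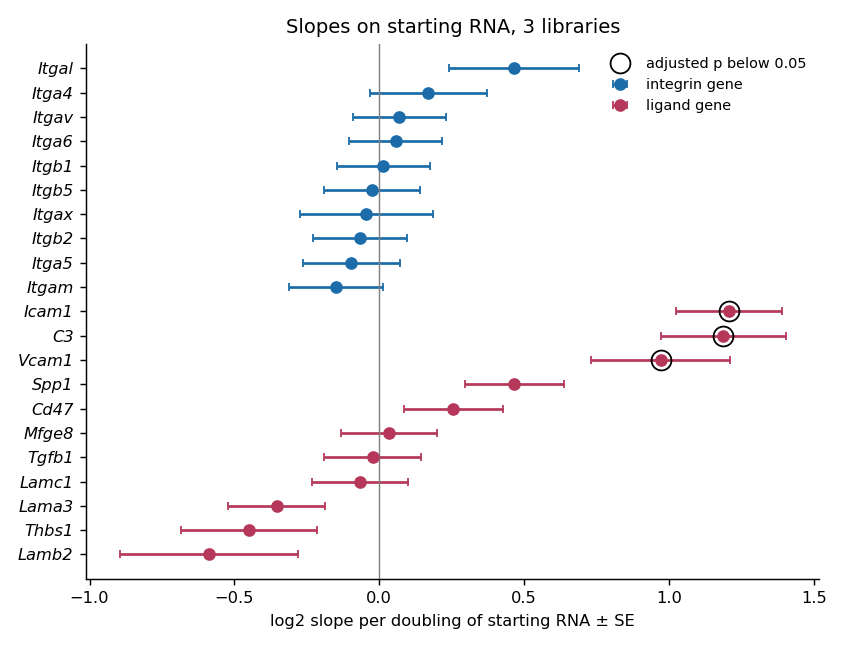
Slope of log2 level per doubling of starting RNA, with its standard error, for the 10 integrin genes (blue) and the 11 ligand genes tested (red), each fitted over 3 libraries. Ringed points passed an adjusted p of 0.05: Icam1 at 1.21, C3 at 1.19 and Vcam1 at 0.97, while the integrin genes lie between -0.15 and 0.46.

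The integrin genes varied between the libraries about as much as other genes did. Their median biological coefficient of variation, edgeR's estimate of the spread beyond counting error, was 0.204, against 0.198 over all genes tested. Itgb1 had the lowest of the members, 0.171 (percentile 9.80 of genes tested), and Itgax and Itgal, the 2 with the fewest counts, had the highest, 0.296 and 0.270 (percentiles 94.2 and 90.5).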

How the data were processed

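Total RNA-seq of the chromatin fraction was analysed in 3 libraries of 1 group. Each library was quantified on its own against annotation M21 of mm10, per the file headers and the text listing of each library. The authors deposited expected counts and TPM per gene and per isoform in an RSEM-like layout, made from reads mapped to the transcriptome, and a second set of estimated counts and TPM per transcript in a kallisto-like layout, made without an alignment. They also deposited a posterior mean TPM and, as a signal pair, bounds of a credibility interval in TPM, which are not printed here. The sources used here do not name the tools, their versions or the use of strand.

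From these files, gene types, isoform classes and 1-based coordinates were added from GENCODE M21 on GRCm38, to which all 55536 gene identifiers matched. Rows that name no gene (phiX) held 1.08%, 0.299% and 0.332% of expected counts in replicates 1, 2 and 3 and were left out, as were 96 spike-ins and 26248 numeric identifiers. Totals were 16317439, 16245280 and 12439931 expected counts. Floors from a count of 0 cover counting error only. Ratios are log2 of TPM ratios, and neighbours in the order were compared on log2(TPM + 0.1). Noncoding isoforms are those annotated retained intron or processed transcript. Expected counts were rounded for edgeR 4.0.16 in R 4.3.3 (quasi-likelihood slope on log2 starting RNA, TMM, filterByExpr, Benjamini-Hochberg over all genes) and for DESeq2 1.42.0 as an alternative. Each gene has 1 residual degree of freedom, and the p-values measure only the spread between these samples, which may be technical. On simulated data for this slope (13662 genes, 100 slopes of each size), edgeR recovered 91% of slopes of 1 and 100% of slopes of 2, with 10 false calls. In a run without slopes it made 0 calls. Slopes were given only to genes with more than 100 counts on average, and every gene had the same coefficient of variation, 0.213. These rates do not cover genes with fewer counts or a larger spread. Itgax and Itgal had coefficients of 0.296 and 0.270.

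The integrin genes and the gene lists were chosen with earlier results of these data known. Named genes were all 10 members, the 5 highest, the lowest measured and the unmeasured other integrin chains, the 4 highest and the lowest measured gene of each list and any called gene, and for isoforms the leading ones per member. Fermt1 and the unmeasured ligand genes were named after their values were seen, as were Itgad, Itgax-202 and the pieces of Itga6, Itgb5 and Itgam. Cyr61 and Trac were not matched. Alternatives were the second set of tables, posterior mean TPM, TPM rescaled over coding genes, other pseudocounts and limits, no filter, DESeq2 and its size factors, and each replicate left out. Coding isoforms only was added after the data were seen. Promoter letters are from RefSeq, and isoform letters from the GENCODE M21 transcripts. Protein sequences were not used here.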

Additional observations from a re-analysis of the deposited data

How the results depend on the processing

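No paired analysis was possible because there is only 1 group. The median level of the members, on log2(TPM + 0.1), was 4.30, and 5.05 in the second set of tables, 6.69 with TPM rescaled over coding genes and 3.67 over coding isoforms only. The number of neighbouring pairs in one direction beyond their SD was 6, and 3 in the second set. Itgb2 exceeded its alpha partners by 0.78 (log2), by 0.39 in the second set and by 0.60 with posterior mean TPM. The difference of Itgb2 from Itgb1 was 0.29, 0.53 over coding isoforms only and reversed to -0.49 in the second set. The members' median noncoding share of 37.02% was 58.3% in the second set and 5.26% by expected counts. The count of all genes with a slope, 160, was 66 with DESeq2's size factors, 284 without the filter, 267 on the second set's counts and 83 with DESeq2. Other integrin chains at 1 TPM in every library were 4, and 10 in the second set, and ligand genes 8 and 13. The log2 difference of Itgav from Itgb5 was 0.45, and -0.27 in the second set. The cause of these changes was not tested.

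With each replicate left out in turn, the median level ranged from 4.205 to 4.41, members at 1 TPM from 9 to 10, ordered pairs from 6 to 8, Itgb2 over its partners from 0.74 to 0.85, Itgb2 over Itgb1 from 0.20 to 0.38, the noncoding share from 21.4% to 50.3% and the median coefficient of variation from 0.188 to 0.203. The noncoding share rested most on replicate 1.

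Slopes of 9 members changed sign in 12 values. With each replicate left out they ranged from -0.70 (without replicate 1) to 0.38 (without replicate 2) for Itgam, and in the same order from -1.22 to 1.11 for Itgax, -0.89 to 0.68 for Itga5, -0.33 to 0.42 for Itga6, -0.49 to 0.61 for Itgav, -0.14 to 0.15 for Itgb1, -0.61 to 0.46 for Itgb2 and -0.57 to 0.50 for Itgb5. Itgal kept its sign, from 0.025 without replicate 1 to 0.86 without replicate 2. For Itga4 they ranged from -0.060 without replicate 2 to 0.38 without replicate 1. On the second set's counts they were 0.034 for Itgax, 0.20 for Itga5 and 0.046 for Itgb5. With 2 libraries a slope has no residual degrees of freedom and no test. Counts of 0 called members did not change under 4 other fits, where the smallest adjusted p of a member was 0.159 (edgeR, second set). Depth limits Itgal and Itgax most.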
